A study of Rattus norvegicus with 8 samples.

Results

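The 10 genes described here encode very large proteins that tie the cytoskeleton to membranes, junctions or the nucleus, together with proteins of membrane repair: Dst, Macf1, Plec, Dmd, Utrn, Syne1, Syne2, Ahnak, Myof and Dysf. They were taken by name from a table of 18090 genes, and all 10 were found. The list was chosen by function but with the FPKM of these genes in the FeCl3 and saline samples already known, so their difference is given as a description, without a p-value. All 10 were lower on average after FeCl3, as were 70.2% of all tested genes, with log2 fold changes of -1.71 (Dst) to -0.63 (Utrn). For 7 of them, and for 8.75% of all tested genes, the 4 FeCl3 values all lay below the 4 saline values.

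RNA came from the abdominal aorta of wild-type rats, 4 samples after a filter paper with 10% iron chloride (FeCl3) had lain around the vessel for 5 min and 4 samples after a filter paper with 0.9% saline for 5 min. FeCl3 is an oxidizing salt that injures the wall and starts a thrombus, and the comparison asks how transcripts of the thrombosed vessel differ from those of the sham-treated one. The samples of each condition were described as biologically independent, and the labels put all of them in batch 1. The sources used here give neither the strain, sex and age of the rats nor the time between exposure and harvest. The samples were whole pieces of vessel, so fewer cells of a type and less RNA per cell cannot be told apart.

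Plakins are giant linkers whose binding regions for actin, microtubules and intermediate filaments let them brace these networks against each other. Dystrophin and utrophin run from actin under the membrane to dystroglycan, a receptor for the basement membrane, and they occur in vascular smooth muscle as well as in skeletal muscle. Nesprins, the products of Syne1 and Syne2, sit in the outer nuclear membrane and reach through SUN proteins to the lamina. The ferlins Dysf and Myof are membrane proteins with calcium-binding C2 domains that serve the resealing and fusion of membranes, and Ahnak is a scaffold that binds dysferlin and the annexin A2 and S100A10 complex. In the annotation carried by the deposited table, 7 of the 10 genes had the term actin binding, which 1.71% of tested genes had, and 6 had the term sarcolemma, which 0.931% had.

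Values were FPKM as computed by the authors, which divide the fragments of a gene by its length and by the total of its library. Library totals recovered from the steps between low FPKM values ran from 25768219 to 27384378 fragments after FeCl3 and from 24304434 to 30283292 after saline. Saline replicate 4 held 16.5% of its fragments in haemoglobin genes, within the FeCl3 range of 16.4% to 34.1%, whereas the other saline samples held 1.31% to 1.63%. Saline replicate 1 stood apart in smooth muscle markers, with a summed level of 27385 FPKM against 5516 in saline replicate 2, and in having the lowest endothelial, adipocyte, leukocyte and platelet marker sums of all 8 samples. Pecam1, an endothelial adhesion molecule, was at 4.58 FPKM there and at 54.2 to 85.9 FPKM in the other saline samples, and Dcn, the fibroblast proteoglycan decorin, at 14.4 FPKM against 52.2 to 685. Saline replicate 2 had the highest adipocyte marker sum, with 6272 FPKM of Ucp1, a marker of brown fat. Fold changes and ratios of the 10 genes without these libraries follow beside the results they move. Those of the marker and partner lists were not computed without these libraries.

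Promoter windows from the RefSeq table for build GRCr8, 250 bases before to 50 bases after an annotated start, were found for 8 of the 10 genes; Plec and Syne1 had none there. Windows of Dmd and Utrn are shown because these related genes varied differently between samples, and that of Dst because it had the largest fold change. Dmd had 3 windows, of which 2 overlap by 269 bases, so that 1 of these is shown beside the upstream window. In human and mouse, full-length muscle dystrophin starts at an upstream promoter and a short form at a downstream one. Capitals mark a CArG box and both TGANTCA matches in the upstream Dmd window, GGGCGG on either strand in the downstream Dmd and the Dst window, and CATTCC and CCAAT in the Utrn window. Coordinates and strands are chrX:51205836-51206135 (+) and chrX:53278763-53279062 (+) for Dmd, chr1:9044438-9044737 (-) for Utrn and chr9:43731772-43732071 (+) for Dst.
Dmd upstream window: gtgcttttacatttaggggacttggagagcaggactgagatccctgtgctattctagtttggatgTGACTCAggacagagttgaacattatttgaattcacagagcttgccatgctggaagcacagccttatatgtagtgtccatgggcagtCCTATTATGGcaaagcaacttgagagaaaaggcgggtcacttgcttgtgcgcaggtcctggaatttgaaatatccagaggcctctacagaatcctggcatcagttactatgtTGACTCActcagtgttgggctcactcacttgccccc
Dmd downstream window: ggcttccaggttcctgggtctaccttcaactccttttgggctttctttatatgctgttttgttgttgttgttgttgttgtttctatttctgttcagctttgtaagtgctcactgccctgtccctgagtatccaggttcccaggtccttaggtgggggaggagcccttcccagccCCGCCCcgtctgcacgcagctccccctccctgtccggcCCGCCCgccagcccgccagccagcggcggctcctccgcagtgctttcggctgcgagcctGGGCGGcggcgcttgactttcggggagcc
Utrn window: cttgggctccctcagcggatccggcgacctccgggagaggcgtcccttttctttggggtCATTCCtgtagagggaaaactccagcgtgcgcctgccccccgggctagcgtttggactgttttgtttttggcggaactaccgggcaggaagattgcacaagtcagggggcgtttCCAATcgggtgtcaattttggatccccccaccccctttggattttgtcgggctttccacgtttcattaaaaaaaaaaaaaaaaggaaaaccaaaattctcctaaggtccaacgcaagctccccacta
Dst window: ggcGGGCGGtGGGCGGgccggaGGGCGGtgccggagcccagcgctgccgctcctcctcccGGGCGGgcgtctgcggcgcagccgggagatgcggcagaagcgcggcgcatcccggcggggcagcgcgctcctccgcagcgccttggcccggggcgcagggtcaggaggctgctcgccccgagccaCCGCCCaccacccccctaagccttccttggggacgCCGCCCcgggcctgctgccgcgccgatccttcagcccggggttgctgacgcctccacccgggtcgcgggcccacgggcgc

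Of 6 motifs searched on both strands, the CArG box, the binding motif of serum response factor, was in 1.64% of all 33469 promoter windows and in 1 of the 10 windows of these genes, the upstream window of Dmd. TGANTCA, an AP-1 motif, was in 7.33% of all windows and likewise in that Dmd window alone among the 10. GGGCGG, a GC box, was in 33.1% of all windows and in 8 of the 10, all but the upstream Dmd and the Utrn window. CCAAT was in 37.5% of all windows and in those of Utrn, Myof and Dysf, CATTCC, a TEAD motif, in 14.2% and in those of Utrn, Ahnak and Macf1, and TATAAA in 14.2% and in the 2 downstream Dmd windows. The marked matches do not overlap each other. The share of G and C bases was 80.3% in the Dst window and 47.3% in the upstream Dmd window, where the median of all windows was 51.7%. These matches describe the letters of the windows, and the FPKM values do not tell which start was used.

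Of the 3 plakins, Dst, dystonin, had the largest fold change of the 10 genes. Dst measured 10.2, 6.67, 13.1 and 14 FPKM after FeCl3 and 65.7, 19.0, 57.5 and 25.8 FPKM after saline. The groups did not overlap on the FPKM scale, and saline replicates 1 and 3 were well above saline replicates 2 and 4. Dst lost this separation with median-of-ratios scaling, with quantile normalization and with haemoglobin left out of the library totals. Its log2 fold change was -1.71 ± 0.43 (limma standard error). Plec, plectin, which anchors intermediate filaments to junctions and organelles, measured 7.02, 3.23, 6.33 and 7.35 FPKM after FeCl3 and 31.9, 10.8, 17.9 and 13.9 FPKM after saline. Its groups did not overlap either, with FeCl3 replicate 2 lowest and saline replicate 1 highest, and the log2 fold change was -1.43 ± 0.36. Macf1, the crosslinker of microtubules and actin, measured 7.40, 7.29, 12.3 and 20.5 FPKM after FeCl3 and 31.9, 14, 25.2 and 18.2 FPKM after saline. FeCl3 replicate 4 lay above saline replicates 2 and 4, so the groups overlapped, and the log2 fold change was -0.91 ± 0.38.

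Of the dystrophin pair, Dmd had the larger difference and the larger spread. Dmd, dystrophin, measured 4.03, 2.87, 5.47 and 6.36 FPKM after FeCl3 and 23.4, 5.16, 15.4 and 10.7 FPKM after saline. Saline replicate 2 lay inside the FeCl3 range, while the other saline samples were above it. The log2 fold change was -1.24 ± 0.42. Utrn, utrophin, measured 14.2, 9.66, 9.30 and 14 FPKM after FeCl3 and 16.2, 19.0, 19.9 and 19.0 FPKM after saline. Its groups did not overlap, although FeCl3 replicates 1 and 4 came close to saline replicate 1. Its log2 fold change, -0.63 ± 0.21, was the smallest of the 10.

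The nesprins were lower in the mean as well. Syne1 measured 4.84, 4.43, 8.83 and 10.5 FPKM after FeCl3 and 27.4, 8.38, 23.2 and 12.9 FPKM after saline. FeCl3 replicates 3 and 4 lay above saline replicate 2, so the groups overlapped, and the log2 fold change was -1.16 ± 0.41. Syne2 measured 5.12, 3.06, 4.5 and 6.43 FPKM after FeCl3 and 8.15, 10.6, 7.84 and 10.6 FPKM after saline. All FeCl3 values were below all saline values, and the log2 fold change was -0.86 ± 0.24.

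The membrane repair genes Ahnak, Myof and Dysf separated the groups on the FPKM scale, as did 8.75% of tested genes with FeCl3 lower. Ahnak lost this separation with median-of-ratios scaling, with quantile normalization and with haemoglobin left out of the library totals. Ahnak measured 29.9, 28.6, 28.5 and 28.5 FPKM after FeCl3 and 64.3, 40.3, 51.2 and 69.6 FPKM after saline. The FeCl3 samples were almost alike, with an SD of 0.687 FPKM around a mean of 28.9, against an SD of 13.2 around a mean of 56.3 after saline (4 samples each). The log2 fold change of Ahnak was -0.91 ± 0.22. Myof, myoferlin, measured 6.27, 6.79, 9.06 and 9.03 FPKM after FeCl3 and 24.7, 19.3, 20.2 and 15.7 FPKM after saline. The highest FeCl3 value of Myof was well short of its lowest saline value, and its log2 fold change was -1.25 ± 0.22. Dysf, dysferlin, measured 4.32, 5.34, 5.64 and 6.93 FPKM after FeCl3 and 11.8, 12.5, 16.4 and 9.88 FPKM after saline. FeCl3 replicate 4 and saline replicate 4 were nearest to each other, and the log2 fold change was -1.05 ± 0.23.

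**Figure D1:**
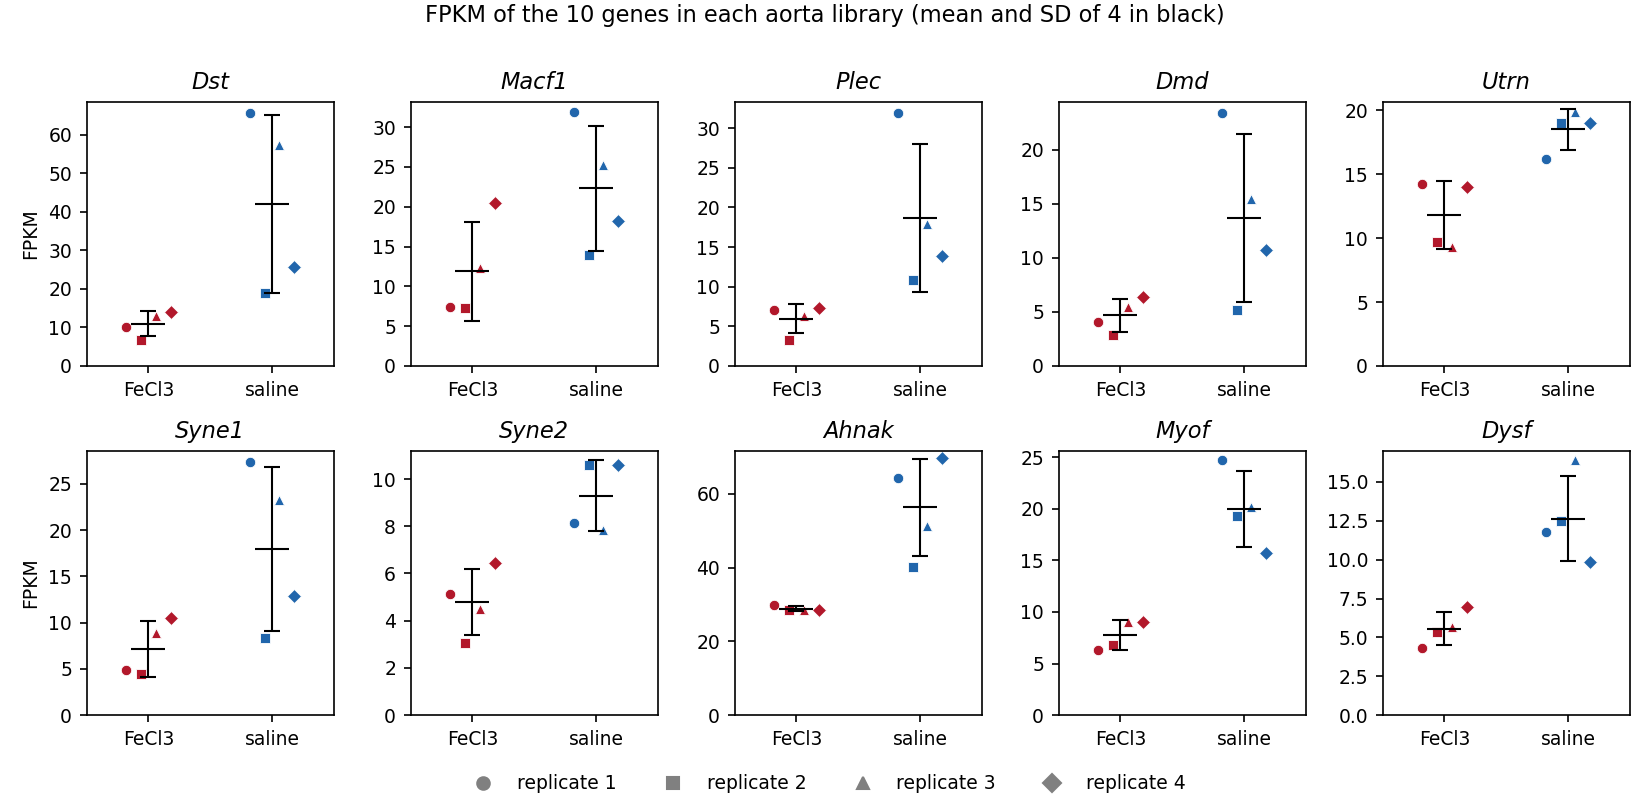
FPKM of each gene in every library, FeCl3 on the left and saline on the right, with 1 symbol per replicate and the mean and SD of 4 in black. FeCl3 and saline points are apart for Dst, Plec, Utrn, Syne2, Ahnak, Myof and Dysf and overlap for Macf1, Dmd and Syne1.

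No gene of the table passed the test across all genes. A gene was tested if 4 or more libraries reached an FPKM of 1. Of the 11921 such genes, all 10 linker and repair genes among them, 0 (0%) had a Benjamini-Hochberg adjusted p under 0.05 in limma on log2(FPKM + 1), and the smallest was 0.245. Without adjustment, 1981 genes (16.6%) had a p under 0.05, of which 1454 were lower and 527 higher after FeCl3. On recovered fragments limma voom also called 0 genes, with 2076 (17.4%) at a p under 0.05 before adjustment. The 10 genes had FPKM of at least 2.87 in every library, so none entered through 1 group alone. A log2 fold change below 0 was found for 10 of the 10 genes and for 70.2% of tested genes, and one below -1 for 6 of the 10 and for 4.33% of tested genes. Complete separation with FeCl3 lower was found for 7 of the 10 and for 8.75% of tested genes, and with FeCl3 higher for none of the 10 and for 1.06% of tested genes. These shares are set beside the counts for scale only, because the 10 genes were chosen with this contrast known. Their median log2 fold change was -1.11, where that of all tested genes was -0.25.

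**Figure D2:**
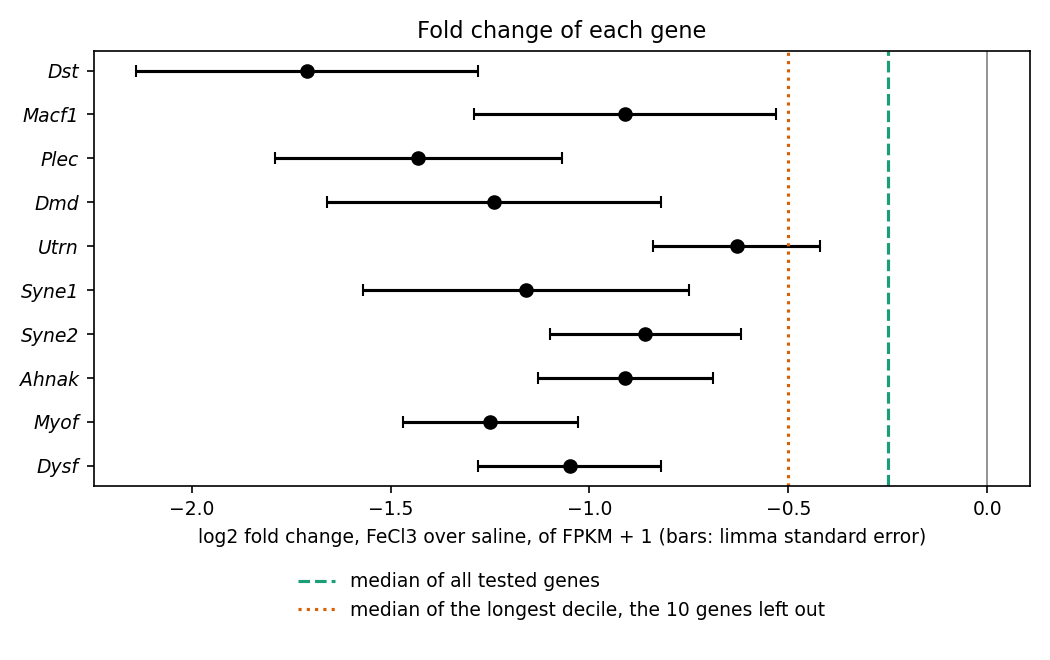
Log2 fold change of FPKM + 1, FeCl3 over saline, for each gene with its limma standard error. All 10 points lie left of the median of all tested genes (-0.25) and of the longest decile of other genes (-0.50), and the Utrn bar reaches across the longer-gene median.

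The size of the separation depended on the scale. FPKM are shares of a library, and haemoglobin took 16.4% to 34.1% of fragments after FeCl3 and 1.31% to 16.5% after saline. With haemoglobin genes left out of the library totals, the median log2 fold change of the 10 genes was -0.84, that of all tested genes was 0.01, and 3 of the 10 (Plec, Myof and Dysf) kept complete separation, against 2.64% of tested genes. With quantile normalization 3 kept it too (Utrn, Myof and Dysf), with 3.60% of tested genes. With median-of-ratios scaling 5 did (Plec, Utrn, Syne2, Myof and Dysf), with 3.62% of tested genes. With FPKM rescaled to TPM all 10 separated the groups, as did 33.3% of tested genes, and 27.6% of tested genes passed the adjusted threshold. Each of the 10 fold changes was negative under all 21 alternatives, at -0.34 or lower. Myof and Dysf separated the groups under every one, where 2.64% to 33.3% of tested genes did so. The fold changes of Utrn ran closest to 0, at -0.34 with haemoglobin left out.

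Single libraries also moved these counts. Without saline replicate 2, 9 of the 10 genes separated the groups, all but Macf1, against 13.8% of tested genes, and without FeCl3 replicate 4, 8 did, against 16.7%. Without saline replicate 1 the 7 genes that separated the groups were the same, against 15.5% of tested genes. The median log2 fold change of the 10 genes was then -0.93, with Dst at -1.44, Plec at -1.14 and Dmd at -0.94. Without saline replicate 4 that median was -1.21, and 160 genes (1.34%) passed the adjusted threshold in limma. With saline replicates 1 and 4 both left out, the median log2 fold change of the 10 genes was -0.92, where that of all tested genes was -0.39. The same 7 genes then separated the groups, against 25.3% of tested genes, and 51 genes (0.428%) passed the adjusted threshold, none of the 10 among them.

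Counting error was small beside the spread between samples. The lowest library of any of these genes still held 788 fragments, for Dysf, a counting error of 3.56%, and the highest held 69908, for Dst. Between samples of a group the SD on the log2 scale ran from 0.23 for Utrn to 0.68 for Dst.

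By this spread the 10 genes fell into 5 with a wide and 5 with a narrow one, a division made after their values were seen. Dst, Macf1, Plec, Dmd and Syne1 had within-group SDs of 0.55 to 0.68, and Utrn, Syne2, Ahnak, Myof and Dysf of 0.23 to 0.30. Each of the wide 5 was highest in saline replicate 1, lowest of the saline samples in replicate 2, and lowest of all in FeCl3 replicate 2. Among the FeCl3 samples replicate 4 was highest for all 5. The narrow 5 shared no such order: the highest library was saline replicate 3 for Utrn and Dysf, saline replicate 4 for Syne2 and Ahnak, and saline replicate 1 for Myof. Relative to each gene's mean over the 8 libraries, the wide 5 averaged -0.81, -1.21, -0.42 and -0.14 in the FeCl3 samples and 1.41, -0.17, 0.99 and 0.35 in the saline samples on the log2 scale. The narrow 5 averaged -0.49, -0.65, -0.49 and -0.24 after FeCl3 and 0.49, 0.42, 0.51 and 0.46 after saline. This evenness is part of how the 5 were divided off.

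Within each group the levels of smooth muscle markers had nearly the order of the genes with a wide spread. FeCl3 replicate 1 was lowest for the markers, and FeCl3 replicate 2 for those genes. All 10 smooth muscle markers passed the filter and had negative fold changes (median -1.0), as did 70.2% of tested genes. Their summed levels were 3968 to 11321 FPKM after FeCl3 and 5516 to 27385 FPKM after saline, highest in saline replicate 1. The fold changes of the markers were not computed without that sample. The mean deviation of the markers was -1.34, -0.66, 0.04 and 0.06 in the FeCl3 samples and 1.59, -0.49, 0.66 and 0.14 in the saline samples. Tagln, an actin-binding protein of smooth muscle and the most abundant marker, averaged 4022 ± 1522 FPKM in the FeCl3 samples and 6274 ± 3943 FPKM in the saline samples (SD, n = 4 each, as for all such values here). Tagln was at 11482 FPKM in saline replicate 1 and at 2158 to 6723 FPKM in the other saline samples. When each gene was set against the mean log2 level of these markers in its own library, the difference between FeCl3 and saline was -0.76 for Dst, -0.48 for Plec, -0.30 for Myof, -0.29 for Dmd and -0.21 for Syne1. It was -0.10 for Dysf, 0.04 for Macf1 and for Ahnak, 0.10 for Syne2 and 0.32 for Utrn, and on this measure none of the 10 genes separated the groups. With each library left out in turn, the difference stayed negative for Dst (-1.03 to -0.62), Plec (-0.85 to -0.32), Dmd (-0.53 to -0.18) and Syne1 (-0.36 to -0.11), and changed sign for the other 6. Without saline replicate 1 it was negative for all 10 (-0.86 to -0.11), and without FeCl3 replicate 1, the sample with the lowest smooth muscle mean, likewise (-1.03 to -0.06). The part of smooth muscle content in the lower levels was not tested.

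**Figure D3:**
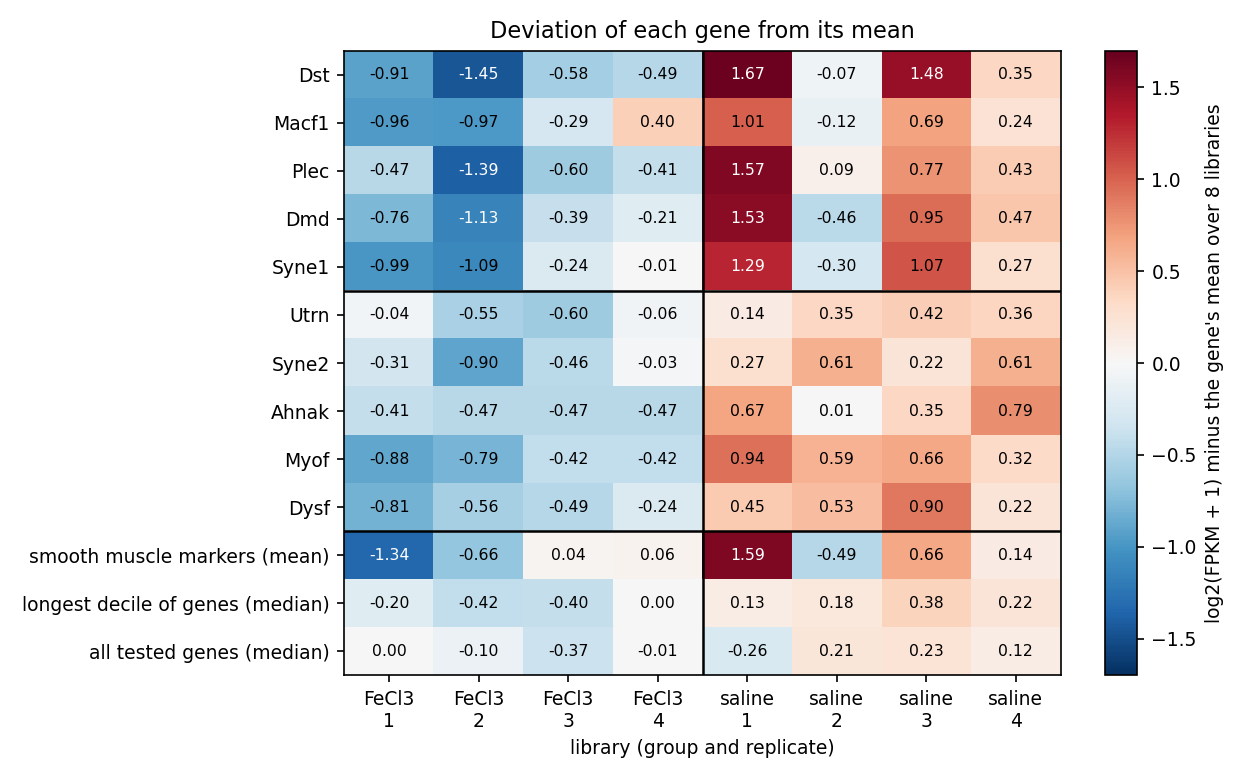
Log2(FPKM + 1) of each gene minus its mean over the 8 libraries, FeCl3 replicates on the left and saline replicates on the right, with the smooth muscle markers the longest decile and all tested genes in the bottom rows. The upper 5 genes follow the dark saline replicate 1 and 3 columns (1.67 and 1.48 for Dst), and the middle 5 are more even across the saline samples.

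The median fold changes of blood cell, endothelial, fibroblast and adipocyte markers were positive under all 5 scalings, and that of the nerve markers was negative. All 5 scalings included saline replicate 1. The lowest saline sums of endothelial, adipocyte, leukocyte and platelet markers (55.5, 2.48, 4.45 and 20.2 FPKM) were all in that sample. The highest saline sums of leukocyte, platelet and erythroid markers (622, 1699 and 258408 FPKM) were all in saline replicate 4. The first 2 of these lay within the FeCl3 ranges, and the erythroid sum lay just below the lowest FeCl3 sum of 259422 FPKM. The median fold changes were not computed without saline replicate 1 or 4, so how far they rest on either is not known. Leukocyte markers (10 of 10 tested, median 2.74, led by Lyz2) summed to 393 to 875 FPKM after FeCl3 and 4.45 to 622 FPKM after saline, and platelet markers (8 of 8, median 2.32, led by Pf4) to 991 to 2567 FPKM after FeCl3 and 20.2 to 1699 FPKM after saline. Erythroid markers (8 of 8, median 3.41, led by Hba-a1) summed to 259422 to 589320 FPKM after FeCl3 and 21025 to 258408 FPKM after saline. Endothelial markers (10 of 10 tested, 3 of them negative, median 0.87, led by Pecam1) ran from 227 to 327 FPKM after FeCl3 and from 55.5 to 315 FPKM after saline. Fibroblast markers (10 of 10 tested, median 1.3, led by Dcn at a log2 fold change of 2.35) were negative for the next most abundant, the collagens Col1a2 (-0.49) and Col1a1 (-0.67), and their sum ran from 914 to 4086 FPKM after FeCl3 and from 1021 to 3576 FPKM after saline, and adipocyte markers (8 of 8 tested, Ucp1 negative at -3.54, median 1.4, led by Fabp4) from 438 to 11201 FPKM after FeCl3 and from 2.48 to 16634 FPKM after saline. Dystrophin, dysferlin and Syne1 are abundant in skeletal muscle, whose markers were low: 4 of 12 passed the filter, led by Acta1, Myh1, Myh2, Myh4 and Ryr1 stayed under 0.5 FPKM in every library, and their median fold change was -0.17 (0.11 with haemoglobin left out), and the sum was 18.9 to 55.9 FPKM after FeCl3 and 26.7 to 42.0 FPKM after saline. Schwann cell and nerve markers (8 of 9 tested, median -1.27) summed to 165 to 999 FPKM after FeCl3 and 279 to 1523 FPKM after saline, and mesothelial markers (0 of 5 tested) to 0.732 to 3.07 FPKM after FeCl3 and 0.0437 to 211 FPKM after saline. Their part in the levels of the 10 genes was not tested.

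Gene length went with the fold change across the whole table. The lengths recovered from the FPKM values ran from 6844 bases for Myof and 6954 for Dysf to 30693 for Syne1, 31858 for Macf1 and 35117 for Dst, which ranks Dst 3 among 11921 tested genes. In deciles of length, the median log2 fold change of other genes was 0.21 in the shortest and -0.50 in the longest, and it was lower in each decile than in the one before. The longest decile held 8 of the 10 genes, and the decile below it held Myof and Dysf. Of 1554 other tested genes at least as long as Myof, 90.5% had a negative fold change, 20.3% separated the groups with FeCl3 lower, and 9.40% had a log2 fold change below -1. Of 138 other genes of at least 15000 bases the median was -0.59, and 11.6% were below -1, where 3 of the 7 linker genes of that length (Dst, Plec and Syne1) were. In single libraries the median deviation of the longest decile was -0.20, -0.42, -0.40 and 0.00 after FeCl3 and 0.13, 0.18, 0.38 and 0.22 after saline. The part of length in the fold changes of the 10 genes was not tested.

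**Figure D4:**
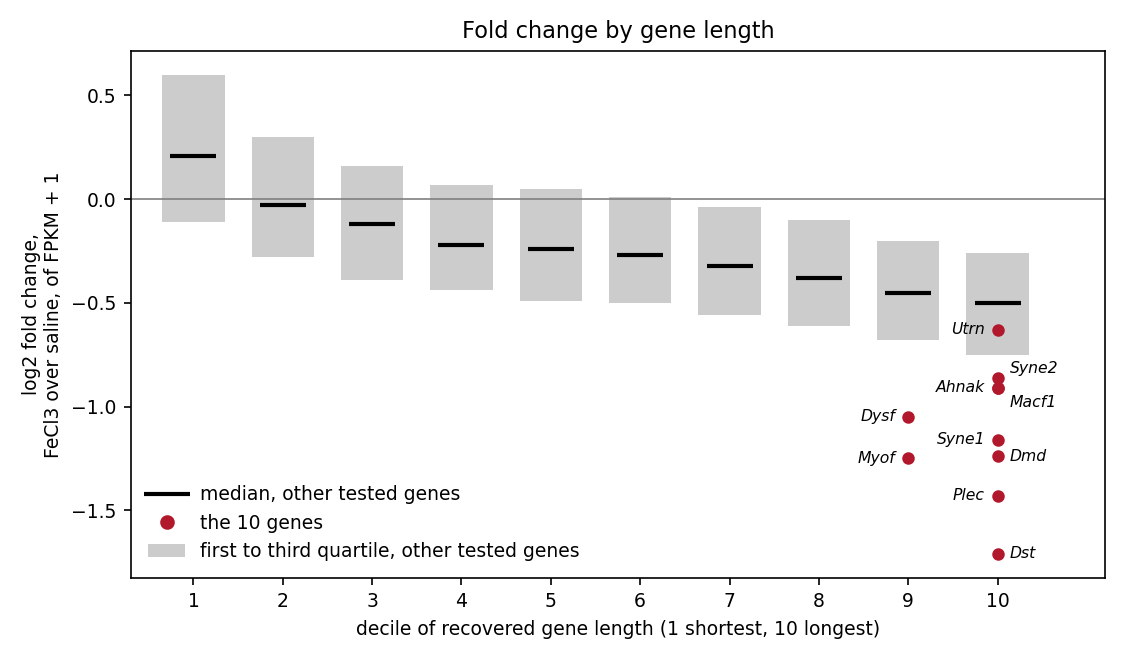
Log2 fold change of FPKM + 1, FeCl3 over saline, by decile of recovered gene length, with the median and quartiles of other tested genes in grey and the 10 genes as points. The medians go down from 0.21 to -0.50 along the deciles, and 9 of the 10 points lie under the lower quartile of their decile, all but Utrn.

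A ratio of 2 FPKM within a library is left as it is by a factor common to that library. The log2 ratios below have 1 added to each FPKM, so for them this holds only nearly. With 0.01 added instead, the differences of FeCl3 from saline were -0.73 for Dmd over Utrn and -0.61 for Plec over Macf1. They were -0.29 for Syne1 over Syne2, 0.18 for Dysf over Myof and -0.82 for Dst over Macf1. Utrn was above Dmd in all FeCl3 samples and in 3 saline samples, and Dmd was above Utrn in saline replicate 1. The Dmd to Utrn ratio of FPKM was 0.284, 0.297, 0.589 and 0.454 after FeCl3 and 1.45, 0.272, 0.775 and 0.564 after saline. Saline replicate 2 was the lowest of all 8, so the groups overlapped. On the log2 scale, with 1 added to each FPKM as in all the log2 ratios here, the ratio averaged -1.19 ± 0.42 after FeCl3 and -0.58 ± 0.92 after saline, a difference of -0.61 that was -0.25 without saline replicate 1 and -0.98 without saline replicate 2. Syne1 was above Syne2 in 6 of 8 samples, with a log2 ratio of 0.45 ± 0.39 after FeCl3 and 0.76 ± 0.94 after saline. That difference, -0.31, was -0.02 without saline replicate 1, -0.08 without saline replicate 3, -0.13 without FeCl3 replicate 1, -0.47 without saline replicate 4 and -0.66 without saline replicate 2. Dysf was below Myof in all 8 samples, and their log2 ratio was -0.42 ± 0.13 after FeCl3 and -0.62 ± 0.30 after saline. The difference, 0.20, was 0.07 without saline replicate 1 and 0.32 without saline replicate 3. Among plakins, Dst was above Macf1 in all saline samples and in 2 FeCl3 samples. Its log2 ratio averaged -0.03 ± 0.39 after FeCl3 and 0.77 ± 0.38 after saline, a difference of -0.80 in which FeCl3 replicate 1 and saline replicate 2 both stood at 0.42, and which ran from -0.95 to -0.64 with a library left out. The Plec to Macf1 log2 ratio averaged -0.82 ± 0.54 after FeCl3 and -0.30 ± 0.21 after saline, with FeCl3 replicate 1 at -0.07 inside the saline range. The difference was -0.52, and -0.34 without FeCl3 replicate 4.

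**Figure D5:**
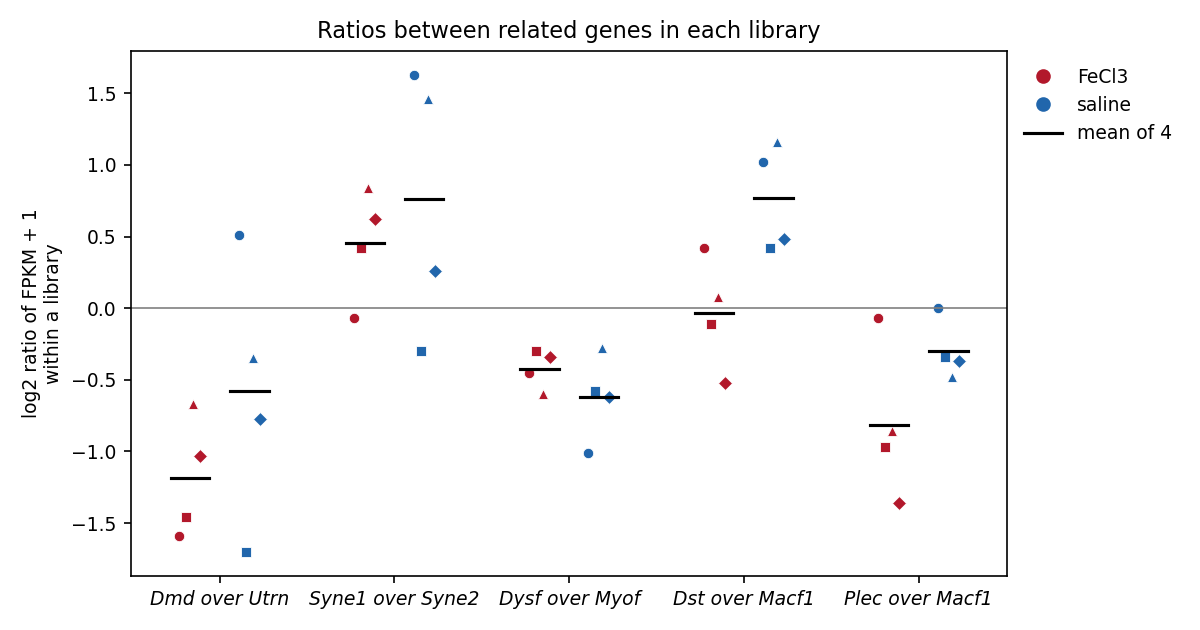
Log2 ratio of FPKM + 1 between related genes within each library, FeCl3 in red left of saline in blue, with 1 symbol per replicate and the mean of 4 as a line. The groups overlap or touch in all 5 pairs, and the saline points of Dmd over Utrn and Syne1 over Syne2 spread widest (SD of 0.92 and 0.94).

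The order of levels, which FPKM express per length, was led by Ahnak, the most abundant in 6 of 8 samples and second to Dst in saline replicates 1 and 3. After FeCl3, Ahnak (28.9 FPKM) was followed by Macf1 (11.9), Utrn (11.8) and Dst (11), 3 genes whose ranges overlapped, then Myof (7.78), Syne1 (7.14), Plec (5.98), Dysf (5.56), Syne2 (4.78) and Dmd (4.68), where each neighbour again overlapped. After saline, Ahnak (56.3 FPKM) and Dst (42.0) led, followed by Macf1 (22.3), Myof (20), Plec (18.6), Utrn (18.5), Syne1 (18.0), Dmd (13.7), Dysf (12.6) and Syne2 (9.29), with overlap between all neighbours. The definition of gene length that the authors used is not known here, and a length summed over the exons of many isoforms, as Dst and Dmd have, would lower their FPKM.

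Partners of these proteins were taken from lists of their complexes, the 10 genes left out, and 0 passed the test in either direction. For scale beside the counts of all these lists, 70.2% of tested genes had a negative fold change. That share was 33.4% in the shortest decile of gene length and 91% in the longest. In the dystrophin complex all 19 tested partners had negative fold changes (median -0.66), and 18 did with haemoglobin left out of the library totals (median -0.38). Dag1, dystroglycan, averaged 34.8 ± 8.73 FPKM after FeCl3 and 71.2 ± 5.08 FPKM after saline, and its groups did not overlap. Its log2 fold change was -1.04 ± 0.22. Sgcb, a sarcoglycan, averaged 17.5 ± 2.53 FPKM after FeCl3 and 35.0 ± 9.38 FPKM after saline, and its groups met at 21.1 FPKM, in FeCl3 replicate 2 and saline replicate 4.

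Partners of the nesprins at the nuclear envelope had 8 of 10 fold changes negative and a median of -0.46, or 7 of 10 with a median of -0.20 with haemoglobin left out. Lmna, which encodes A-type lamins, averaged 106 ± 17.2 FPKM in FeCl3 samples and 185 ± 92.5 FPKM in saline samples. Sun2, which binds nesprins across the envelope, averaged 44.0 ± 7.19 FPKM with FeCl3 and 67.6 ± 23.5 FPKM with saline, and Emd, emerin, 20.8 ± 3.64 FPKM with FeCl3 and 37.6 ± 21.7 FPKM with saline. The groups overlapped for all 10. Partners in membrane repair went both ways, with 20 of 24 negative and a median of -0.47, or 16 of 24 and -0.17 with haemoglobin left out and 24 of 24 with TPM. S100a10, which joins annexin A2 and Ahnak, averaged 482 ± 276 FPKM after FeCl3 and 271 ± 77.0 FPKM after saline, with a log2 fold change of 0.73 ± 0.39. S100a11, an annexin partner at injured membranes, averaged 269 ± 55.9 FPKM after FeCl3 and 443 ± 68.6 FPKM after saline (-0.72 ± 0.25), and Anxa1, annexin A1, 336 ± 98.7 FPKM after FeCl3 and 288 ± 155 FPKM after saline (0.31 ± 0.39). The other ferlins were low: Otof, Fer1l5 and Fer1l6 stayed under 0.5 FPKM in every library.

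Filament and junction partners of the plakins were all negative (9 of 9, median -1.02), though 7 of 9 were with haemoglobin left out (median -0.79). Vim, vimentin, averaged 846 ± 58.6 FPKM after FeCl3 and 1143 ± 692 FPKM after saline, and Des, desmin, the muscle intermediate filament, 255 ± 106 FPKM after FeCl3 and 679 ± 631 FPKM after saline. Itgb1, the integrin beta 1 chain, averaged 213 ± 36.7 FPKM after FeCl3 and 415 ± 251 FPKM after saline. The groups overlapped for Vim, Des and Itgb1, and saline replicate 1 was highest for each, at 2088, 1609 and 768 FPKM. The other saline samples ran from 476 to 1180 FPKM for Vim, 255 to 530 for Des and 197 to 414 for Itgb1. After FeCl3 the ranges were 764 to 891, 106 to 334 and 166 to 252 FPKM. In a further list of plakin partners, most of them proteins of microtubule ends, 9 of 10 were negative (median -0.73). Mapre1, an end-binding protein, averaged 39.9 ± 5.72 FPKM after FeCl3 and 60.4 ± 14.2 FPKM after saline. Mapre2 and Mapre3, its relatives, had log2 fold changes of -0.36 ± 0.48 and -1.12 ± 0.41. Spectrins, ankyrins, filamins and other actin linkers were negative in 13 of 13 under each of the 5 scalings (median -0.95 with FPKM), and their most abundant member Flna, filamin A, averaged 288 ± 144 FPKM after FeCl3 and 632 ± 398 FPKM after saline, while Actn4 and Actn1, alpha-actinins, had log2 fold changes of -0.85 ± 0.48 and -0.95 ± 0.66. Ppl, periplakin, the only other plakin that passed the filter, averaged 2.91 ± 0.355 FPKM after FeCl3 and 3.68 ± 3.55 FPKM after saline, with a log2 fold change of 0.12 (-0.33 with TPM).

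The genes whose levels were most like the average of the 10 over the 8 samples were Golgb1, a Golgi tether, the basement membrane collagens Col4a2 and Col4a1, Mprip, which binds myosin phosphatase and RhoA, and Cdc42bpa, a kinase bound by Cdc42. Their likeness, measured as Pearson r over 8 samples and given as a description since the samples share the difference between groups, was 0.992, 0.992, 0.991, 0.987 and 0.986. Col4a1 averaged 155 ± 29.7 FPKM after FeCl3 and 339 ± 101 FPKM after saline, and Golgb1 5.48 ± 1.39 FPKM after FeCl3 and 12.6 ± 4.02 FPKM after saline. Their recovered lengths were 6286 to 11198 bases.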

How the data were processed

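PolyA RNA-seq of 8 aorta samples was analysed from 1 deposited table of FPKM, computed by the authors; per the submitters' processing notes the tools were fastp, HISAT2 and HTSeq and the build was mRatBN7.2, with no versions, annotation or gene lengths stated. Columns were matched to samples by title, with 0 left unmapped. Library totals and gene lengths were recovered from the steps between low FPKM, and all 18090 genes (100%) came out as whole fragments within 0.02; the length of 1 gene, Hbb, was doubled so that sums matched the totals. The members and lists were chosen with earlier results of these data known. Replicates were numbered in accession order, and no 2 libraries shared more than 1.31% of fragment numbers.

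The test of FeCl3 over saline was limma 3.58.1 under R 4.3.3, run on log2(FPKM + 1) of genes that reached an FPKM of 1 in 4 or more libraries (trend, two-sided, Benjamini-Hochberg, threshold 0.05); this scale understates changes of low genes. The procedure was tested on simulated data in which the changed genes moved more than any of the 10 genes did. How well it finds changes of the size seen here was therefore not tested. Named beside the 10 genes are the 3 most abundant tested partners of each list, the most abundant gene of each cell type list that had one tested and the 5 genes most alike; some genes that this rule names are not reported here. Alternatives were pseudocounts of 0.1 and 0.01, 2 other filters, 4 scalings, 3 variance models, voom on recovered fragments and each library left out. Added after seeing the data were a fit with saline replicates 1 and 4 both left out and the differences over smooth muscle markers with each library left out; Ucp1, Col1a1 and Col1a2 were named after their values were seen. Promoter windows were RefSeq's on GRCr8. Figures used matplotlib 3.10.9.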

Additional observations from a re-analysis of the deposited data

Results flagged for a closer look

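The FeCl3 values of Ahnak had 1 sample apart from the others in relative terms: FeCl3 replicate 1, at 29.9 FPKM, stood off from values of 28.5 to 28.6 by 0.942 of the range of the group, a range that is itself narrow. Among saline samples the haemoglobin share of replicate 4, 16.5%, stood off from 1.31% to 1.63% by 0.979 of the range. Both exceed the critical value of Dixon's test for 4 samples, which chance passes in about 1 in 20 groups; 36 groups were examined and 2 passed.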

How the results depend on the processing

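No paired analysis was possible because the labels pair no FeCl3 library with a saline library. The count of genes past the threshold, 0, was 3288 with FPKM rescaled to TPM, all 10 linker and repair genes among them, and 51 with saline replicates 2 and 3 as the only controls, none of the 10 among them. With a library left out it ran from 0 to 160; the 160, reached without saline replicate 4, held Myof, and leaving out any other library gave 0. The median log2 fold change of the 10 genes was -1.83 with FPKM rescaled to TPM, against -0.90 over all tested genes, and otherwise ran from -1.26 to -0.84. The count of the 10 genes that separated the groups, 7 beside 8.75% of all tested genes, was 3 with quantile normalization (3.6% of tested genes), 3 with haemoglobin left out of the total (2.64%), 5 with median-of-ratios scaling (3.62%) and 10 with TPM (33.3%). It ran from 7 to 9 with a library left out (8.98% to 16.7%) and was 7 with saline replicates 2 and 3 as the only controls (25.3%). The causes of these changes were not tested. Of 210 fold changes of single genes under alternatives, all were negative, and 193 moved by less than the spread between samples. The smallest fragment number behind a value of the 10 genes, 788, gives a counting error of 3.56%.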
